A study of Mus musculus with 8 samples.

Results

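The comparison described here set mouse epididymal white fat after 3 days of the β3-adrenergic agonist CL 316243 against the same tissue 8 hours after a dose of it. It used 4 of the 8 arrays of the series, chosen by their sample titles: wild type and Ppara knockout mice given CL 316243 for 8 hours (30 nmol), and wild type and Ppara knockout mice given CL 316243 for 3 days (3 nmol/hr). Each of the 4 groups held 1 array. The other arrays were a control of each genotype, which entered no comparison, and 6 days of the drug at 3 nmol/hr in each genotype, which entered the fit for the spread and are quoted beside some values. The dose, its form and the elapsed time all differed between 8 hours and 3 days, so their parts in a difference cannot be told apart. The labels give no strain, age or sex. They leave out how many animals stood behind an array, so a p-value here reflects the spread between these arrays, which may be technical. All probe sets with 1 gene symbol entered, 10855 of the 12488 on the array, standing for 8252 genes. Of these genes, 5842 were bright enough to test.

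CL 316243 activates the β3-adrenergic receptor of fat cells, which raises cyclic AMP, activates protein kinase A and releases fatty acids from stored triglyceride. Ppara encodes PPARα, a nuclear receptor that binds fatty acids and switches on genes for burning them. In white fat a first strong β3 stimulus is known for an acute inflammatory response, while stimulation over days is known for the growth of oxidative capacity and for cell division in the fat pad.

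In the text, a pair of values gives wild type first and knockout second. Values are the deposited intensities, on a linear scale. Differences are 3 days minus 8 hours on the log2 scale, averaged over both genotypes, with the standard error (SE) of a limma fit. Values under 171 were raised to that floor before log2 was taken, and a difference with a side at the floor is given as "at least". A gene was called when its limma p-value, adjusted over the 5842 genes by the Benjamini-Hochberg method, was under 0.05.

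Ppara, the targeted gene, read 795 and 254 at 8 hours, 604 and 292 at 3 days, and 1843 and 336 at 6 days, so every knockout array lay under every wild type array. The labels do not say which part of the gene was deleted. The tissue label was met by fat cell markers: Adipoq, Retn, Fabp4 and Lep were well above the floor on all 4 arrays. Every array had a median intensity of 320. The ratio of 5′ to 3′ Gapdh probe signal, a measure of RNA integrity, was 1.16 and 1.05 at 8 hours and 1.14 and 1.18 at 3 days. The knockout array at 8 hours stood apart by genes of the pancreas and of the epididymis and testis. The summed intensity of 19 pancreas genes was 27700 there and 5091 to 5926 on the other 3 arrays compared. That of 20 epididymis and testis genes was 17859 there, 6209 on the wild type array at 8 hours, and 2581 and 2342 at 3 days. On the 6 day arrays, which entered the fit for the spread, it was 11063 and 1818.

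Between 8 hours and 3 days, 99 genes rose (1.69% of those tested) and 142 fell (2.43%). All 241 moved in the same direction in both genotypes, which the fit favours, since a gap between the genotypes' changes enlarges the SE. Of all 5842 genes, 2154 were higher at 3 days in both genotypes and 2082 were lower in both. The called rises began at a log2 difference of 0.98 and the called falls at -1.03. At least 2-fold in both genotypes, 209 genes were higher at 3 days (3.58%) and 197 were higher at 8 hours (3.37%), and at least 4-fold in both, 26 and 32 were. The median difference over all genes tested was 0.01. Of the falls, 21 had both 3 day arrays at the floor, and of the rises 8 had both 8 hour arrays at the floor. Such genes were bright enough to test only through the arrays of the other time. Values raised to the floor show no spread, so the SE and p-value of these genes can be too small. The calls depended on the fit: with any 1 of the 4 compared arrays left out, 0 genes passed in limma (572 to 1236 at an unadjusted p under 0.05, against 1528), while a fit of the 4 arrays alone called 566 rises and 532 falls, the 241 among them. With a floor at the 25th percentile of intensity 44 genes passed, with no filter on dim probe sets 2, with the filter over all 8 arrays 29, and without genotype in the fit 17. Under each of these 4 settings 0 rises of the cell cycle, mitochondrial fatty acid oxidation and peroxisomal oxidation lists passed in limma. Likewise 0 falls of the cholesterol, heat shock, unfolded protein and ribosome biogenesis lists passed. The counts of these lists hold for the settings used here, while the values of each array stand as given. List counts at an unadjusted limma p under 0.05 stand beside 1528 of all 5842 genes. Those of the fit of 4 arrays stand beside its 566 rises and 532 falls. The genes lower at 3 days were led by inflammatory and neutrophil genes, and those higher at 3 days by genes of fat cell metabolism and of mitosis.

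**Figure D1:**
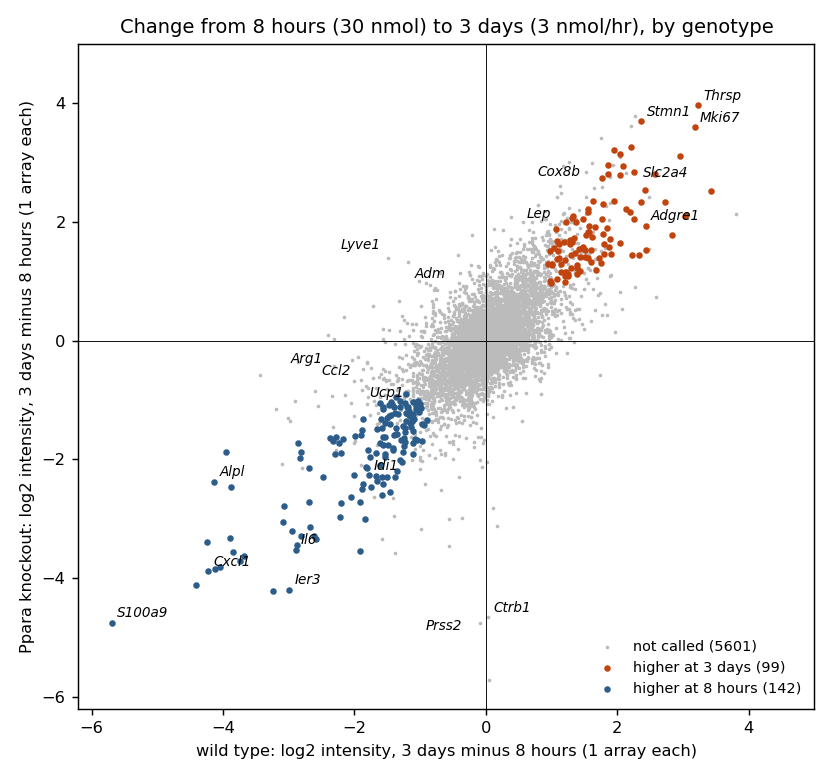
Each point is 1 of the 5842 genes, with the log2 difference of 3 days minus 8 hours in wild type on the horizontal axis and in the Ppara knockout on the vertical axis, each from 1 array per time. The 99 called rises (red) and 142 called falls (blue) lie in the quadrants where both genotypes moved the same way, a pattern that the fit favours. Ctrb1 and Prss2 differed by 2-fold or more in the knockout alone.

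The acute inflammation list held the most falls of any list, all brighter on the 8 hour arrays. This and the other lists were written with earlier results of these data known. A list's share beside that of all genes is therefore a description and was not tested. Of 52 measured members of the acute inflammation list, 20 fell by 3 days (38.5%, against 2.43% of all genes), 1 rose, and the median difference was -1.30 (-1.31 in wild type and -1.08 in the knockout). The falls took in chemokines (Cxcl1, Cxcl2, Cxcl5, Ccl3), cytokines and their receptors (Il6, Il1b, Il1r2, Osmr), feedback regulators and transcription factors (Socs3, Ier3, Bcl3, Nfkb2, Cebpb, Cebpd), and secreted or adhesion proteins (Ptx3, Tnfaip6, Lcn2, Mmp3, Tgm2, Selp). In the fit of 4 arrays, 35 members fell and 2 rose.

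Cxcl1, a chemokine that draws neutrophils, read 3189 and 4877 at 8 hours and 124 and 330 at 3 days, and fell by at least 4.05 (SE 0.18, limma adjusted p = 0.00435). Cxcl5, of the same chemokine class, read 2463 and 2280 at 8 hours and 52 and 193 at 3 days, a fall of at least 3.71 (SE 0.21, limma adjusted p = 0.00689). Cxcl2 went from 2541 and 1709 to 34 and 124, a fall of at least 3.61 (SE 0.22, limma adjusted p = 0.00946). For each of these chemokines both 8 hour arrays lay several-fold above both 3 day arrays, and the wild type 3 day array was at the floor. Cxcl2 was at the floor on both 3 day arrays, so its SE and p-value can be too small. Il6, the cytokine interleukin 6, read 1272 and 1958 at 8 hours but -9 and 9 at 3 days and 17 and 18 at 6 days, and fell by at least 3.21 (SE 0.23, limma adjusted p = 0.0117). Il1b, the precursor of interleukin 1β, read 2975 and 2463 at 8 hours and 45 and 112 at 3 days, a fall of at least 3.98 (SE 0.18, limma adjusted p = 0.00435). Both cytokines were thus at the floor on all 4 arrays of the longer treatments, so the spread behind their SE and p-value came from the 8 hour arrays alone.

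Ptx3, a secreted pattern recognition protein, read 3857 and 7462 at 8 hours and 290 and 573 at 3 days, and fell by 3.72 (SE 0.17, limma adjusted p = 0.00435), a 13.2-fold difference. Ier3, an early response gene that moderates cell death, read 3676 and 11268 at 8 hours and 463 and 616 at 3 days and fell by 3.59 (SE 0.34, limma adjusted p = 0.0229). Socs3, the inhibitor that cytokine signals induce against themselves, read 2501 and 3328 and then 391 and 380, and fell by 2.90 (SE 0.22, limma adjusted p = 0.0138). These 3 genes stayed above the floor at 3 days on both arrays, so their falls are measured sizes. The transcription factor Cebpb was the smallest of the 20 falls: it read 13853 and 14194 at 8 hours and 6199 and 5418 at 3 days, a fall of 1.27 (SE 0.21, limma adjusted p = 0.0457).

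Some inflammatory genes were not called as falls: Orm2 rose, while Ccl2 and Saa3 were lower at 3 days in both genotypes without a call. Orm2, an acute phase glycoprotein, read 170 and 616 at 8 hours, 1222 and 2130 at 3 days and 190 and 454 at 6 days, and rose by at least 2.31 (SE 0.29, limma adjusted p = 0.0297), so it was highest on the 3 day arrays in both genotypes. Ccl2, the chemokine that draws monocytes, read 10021 and 17763 at 8 hours and 2679 and 11208 at 3 days, a difference of -1.28 (SE 0.94, limma adjusted p = 0.437; 0.0239 in the fit of 4 arrays). The knockout array at 3 days lay above the wild type array at 8 hours, so the Ccl2 groups overlapped. Saa3, an acute phase protein made in fat, read 19433 and 16208 and then 2810 and 3670, a difference of -2.47 (SE 0.91, limma adjusted p = 0.170; 0.000969 in the fit of 4 arrays). Its 8 hour arrays lay above its 3 day arrays, and its 6 day arrays read 190 and 2179, apart by genotype.

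The promoters of the leading chemokines and of Il6 are shown because these genes moved together and share a short sequence form. The 150 bases before the annotated start are given, 5′ to 3′ on the gene's strand, from the RefSeq promoter table (GRCm38.p6), with matches to the κB form GGANTTTCC in capitals. Cxcl1 is at chr5:90891095-90891244 (plus strand), Cxcl2 at chr5:90903749-90903898 (plus strand) and Il6 at chr5:30012964-30013113 (plus strand).
Cxcl1: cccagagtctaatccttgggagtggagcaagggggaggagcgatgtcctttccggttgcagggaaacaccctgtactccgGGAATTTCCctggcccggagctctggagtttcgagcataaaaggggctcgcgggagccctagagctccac
Cxcl2: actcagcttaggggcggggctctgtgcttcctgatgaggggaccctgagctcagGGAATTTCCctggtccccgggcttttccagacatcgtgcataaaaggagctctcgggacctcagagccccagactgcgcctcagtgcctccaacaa
Il6: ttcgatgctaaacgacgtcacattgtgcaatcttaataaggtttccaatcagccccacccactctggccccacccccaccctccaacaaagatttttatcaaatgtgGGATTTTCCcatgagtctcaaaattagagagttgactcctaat
The match began at position -70 in Cxcl1, -96 in Cxcl2 and -43 in Il6, counted from the start. In the 250 bases before the start, searched on both strands, 5 of the 17 called falls of the inflammation list that had a promoter in the table held this form (29.4%: Cxcl1, Cxcl2, Il6, Nfkb2 and Ier3), against 1.25% of 27025 promoters. A C/EBP form, TTGCNNAA, was in 4 of the 17 (Il6, Lcn2, Mmp3 and Ptx3), against 10.8% of all promoters, and the cyclic AMP response element TGACGTCA was in 0 of the 17, against 1.77%. Other forms of the cyclic AMP response element were not searched, so this count does not show that the promoters lack it. Altogether 6 forms were searched, chosen with these promoters in view, their matches can overlap, and a match is a description of letters.

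Several neutrophil genes fell by 3 days. Of 12 measured neutrophil genes, 6 fell (50%, against 2.43% of all genes), with a list median of -1.96. They were S100a9, S100a8, Il1r2, Fpr2, Lcn2 and Cxcr2. The lists overlap, and Il1r2 and Lcn2 were also counted among the inflammation falls. The summed intensity of the 21 neutrophil genes on the array went from 41135 and 54024 to 9569 and 11355. S100a9, a subunit of the calcium-binding protein calprotectin, read 8857 and 10978 at 8 hours, 86 and 407 at 3 days and 36 and 218 at 6 days, and fell by at least 5.22 (SE 0.29, limma adjusted p = 0.00689), at least 37.4-fold. Its partner S100a8 read 12282 and 17892 at 8 hours, 746 and 1282 at 3 days and 269 and 997 at 6 days, and fell by 3.92 (SE 0.36, limma adjusted p = 0.0200). Both calprotectin genes were highest on the knockout 8 hour array. Fpr2, a receptor for formyl peptides, read 644 and 1125 and then 21 and 135, both at the floor. The granule genes Ngp and Ltf were under the floor on all 4 arrays, and Csf3r, the receptor of the neutrophil growth factor, read 1519 and 1311 at 8 hours and 2101 and 1473 at 3 days with no call. In tissue RNA, fewer cells of a type and less RNA of a gene per cell cannot be told apart.

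Large falls also occurred among genes that no list held. Tgm3, a transglutaminase that crosslinks proteins, read 3620 and 2977 at 8 hours and 86 and 159 at 3 days and fell by at least 4.26 (SE 0.18, limma adjusted p = 0.00435). Star, which carries cholesterol into mitochondria for steroid synthesis, read 3873 and 8584 at 8 hours, 303 and 697 at 3 days and 32 and 314 at 6 days, and fell by 3.65 (SE 0.18, limma adjusted p = 0.00589). Dusp16, a phosphatase of MAP kinases, read 3252 and 2953 and then 105 and 281, a fall of at least 3.82 (SE 0.29, limma adjusted p = 0.0138). None of these had overlapping groups. Tgm3 was at the floor on both 3 day arrays, so its SE and p-value can be too small. Alpl, tissue non-specific alkaline phosphatase, read 8175 and 5360 and then 467 and 1032, a fall of 3.25 (SE 0.52, limma adjusted p = 0.0446). Cxcl14, a chemokine, read 2511 and 2376 and then 167 and 430, a fall of at least 3.17 (SE 0.48, limma adjusted p = 0.0414).

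**Figure D2:**
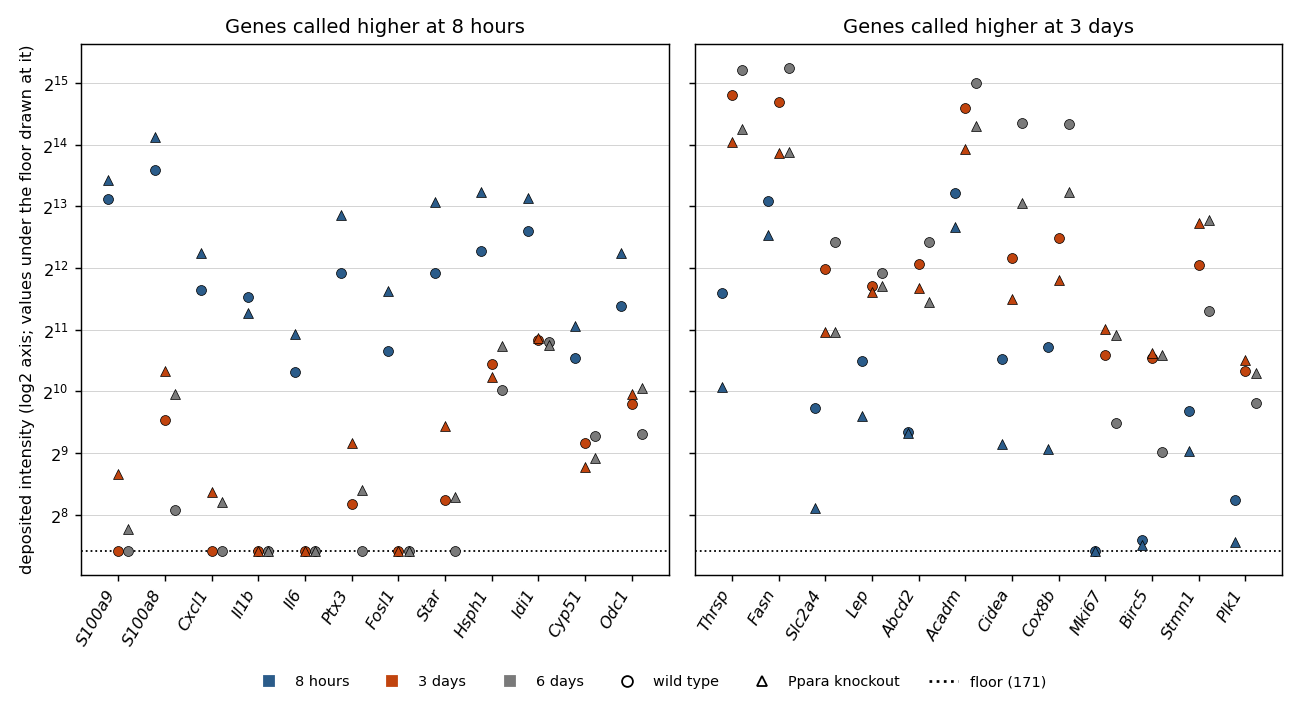
Deposited intensity (log2 axis) of 12 genes called higher at 8 hours and 12 called higher at 3 days, 1 symbol per array, with values under 171 drawn at the dotted floor and no error bars because each symbol is 1 array. For all 24 genes both 8 hour arrays lie on the same side of both 3 day arrays, and Il1b, Il6 and Fosl1 are at the floor on all 3 day and 6 day arrays.

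Early response and stress genes were lower at 3 days to a smaller extent. Of 34 genes on the list of immediate early and cyclic AMP responses, 5 fell (14.7%, against 2.43% of all genes) and 0 rose. The falls were Fosl1, Ccn2, Egr1, Gadd45g and Ier2. On this list 16 genes had an unadjusted limma p under 0.05, and the median was -0.56. Fosl1, a subunit of the AP-1 transcription factor, read 1615 and 3169 at 8 hours and 36 and 91 at 3 days. It fell by at least 3.73 (SE 0.30, limma adjusted p = 0.0146). Both its 3 day values were at the floor, so this SE and p-value can be too small. Egr1, a zinc finger factor of the same early wave, read 994 and 1595 and then 459 and 424 and fell by 1.51 (SE 0.24, limma adjusted p = 0.0453). Fos, the best known gene of the class, did not share this pattern: it read 1370 and 2164 at 8 hours, 1333 and 3550 at 3 days and 173 and 3904 at 6 days, a difference of 0.34 (SE 0.92, limma adjusted p = 0.846). The highest Fos values were thus on the knockout arrays of the longer treatments.

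Of 43 heat shock proteins and chaperones, 3 fell (6.98%, against 2.43% of all genes). The median was -0.57, with 15 falls in the fit of 4 arrays. Hsph1, a cytosolic chaperone that acts with Hsp70, read 4965 and 9659 at 8 hours and 1389 and 1205 at 3 days and fell by 2.42 (SE 0.32, limma adjusted p = 0.0331). Its co-chaperone Bag3 and the endoplasmic reticulum chaperone Dnajb11 fell by 1.33 and 1.28. The inducible Hsp70 gene Hspa1b read 670 and 1689 and then 318 and 477, a difference of -1.45 (SE 0.28, limma adjusted p = 0.0603; 0.00686 in the fit of 4 arrays), with no overlap between the times.

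Of 33 genes of amino acid shortage and the unfolded protein response, 5 fell (15.2%, against 2.43% of all genes) and the median was -0.64. They were Trib3, a pseudokinase induced by Atf4, Creld2, a chaperone of the endoplasmic reticulum, Ppp1r15a, which reverses the block of translation, and the transcription factors Atf4 and Xbp1. Creld2 read 2258 and 3603 at 8 hours and 776 and 957 at 3 days and fell by 1.73 (SE 0.19, limma adjusted p = 0.0278). Atf4 read 7023 and 7683 and then 3366 and 3578, a fall of 1.08 (SE 0.17, limma adjusted p = 0.0450). The Atf4 change was thus close to the same size in both genotypes, -1.06 in wild type and -1.10 in the knockout.

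Genes of ribosome assembly were also lower at 3 days. Of 33 genes of ribosome biogenesis and the nucleolus, 4 fell (12.1%, against 2.43% of all genes) and 31 were lower at 3 days in both genotypes. The median was -0.36 in wild type and -0.98 in the knockout. Odc1, the rate-limiting enzyme of polyamine synthesis, read 2662 and 4849 at 8 hours and 893 and 992 at 3 days and fell by 1.93 (SE 0.24, limma adjusted p = 0.0296). The nucleolar proteins Nop2, Bop1 and Mybbp1a fell by 1.51, 1.42 and 1.18. By contrast 0 of 23 ribosomal protein genes were called in limma (2 at an unadjusted p under 0.05), with a median of -0.08, and their largest differences were -0.78 for Rpl13a (limma adjusted p = 0.0901) and 0.65 for Rps13 (limma adjusted p = 0.160). Of 31 proteasome genes 0 were called in limma (8 at an unadjusted p under 0.05, against 1528 of all 5842 genes). Of the 31, 27 were lower at 3 days in both genotypes, with a median of -0.33, led by Psmd12 (-0.69, SE 0.18) and Psmd11 (-0.59, SE 0.18).

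The cholesterol pathway was higher at 8 hours. Of 16 measured genes, 6 fell by 3 days (37.5%, against 2.43% of all genes), 0 rose, 13 were lower at 3 days in both genotypes, and the median was -0.67. All 6 encode enzymes of the synthesis itself: Idi1, Cyp51, Msmo1, Sqle, Lss and Hsd17b7. Idi1, which isomerises the isoprene unit, read 6244 and 8996 at 8 hours, 1816 and 1877 at 3 days and 1787 and 1730 at 6 days, and fell by 2.02 (SE 0.22, limma adjusted p = 0.0271), or 4.06-fold. Sqle, which oxidises squalene, read 3178 and 4104 and then 855 and 1365, a fall of 1.74 (SE 0.25, limma adjusted p = 0.0381). Cyp51, the lanosterol demethylase, read 1497 and 2146 and then 576 and 438, a fall of 1.83 (SE 0.28, limma adjusted p = 0.0422). Idi1 was nearly level across the 4 arrays of the longer treatments, so the difference lay in the 8 hour arrays, the knockout above the wild type. Msmo1 fell by 1.78, Lss by 1.21 and Hsd17b7 by at least 1.10.

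The promoters of Cyp51 and Idi1 are shown for a form that all 5 of the called cholesterol genes in the table held, the CCAAT box, which the factor NF-Y binds. Capitals mark CCAAT or its reverse complement, ATTGG. Cyp51 is at chr5:4104698-4104847 (minus strand) and Idi1 at chr13:8885456-8885605 (plus strand), both GRCm38.p6 and 150 bases up to the annotated start.
Cyp51: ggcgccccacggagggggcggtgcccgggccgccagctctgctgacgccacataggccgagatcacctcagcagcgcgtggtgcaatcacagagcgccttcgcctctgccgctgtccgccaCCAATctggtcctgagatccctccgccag
Idi1: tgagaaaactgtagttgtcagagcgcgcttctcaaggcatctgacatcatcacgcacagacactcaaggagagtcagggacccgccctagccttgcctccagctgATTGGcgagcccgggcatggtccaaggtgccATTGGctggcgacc
The box began at position -29 in Cyp51, and its reverse at -45 and -14 in Idi1. Against the 5 of 5 (Idi1, Lss, Cyp51, Msmo1 and Hsd17b7), 37.5% of all 27025 promoters held CCAAT on either strand within 250 bases. A form of the sterol response element, TCACNCCAC, was in 0 of the 5, against 1.22% of all promoters. Other forms of this element were not searched, so the count does not show that these promoters lack it.

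Cell division genes gave the most rises of any list. Of 89 measured genes of the cell cycle and DNA replication, 12 rose (13.5%, against 1.69% of all genes), 0 fell, 60 had an unadjusted limma p under 0.05, and 78 were higher at 3 days in both genotypes. The median was 1.01, with 0.73 in wild type and 1.34 in the knockout, and the fit of 4 arrays called 56 rises and 2 falls. The 12 were mostly genes of mitosis: Mki67, Birc5, Stmn1, Nusap1, Anln, Plk1, Cdc20, Kif2c, Kif22, Foxm1, Hmgb2 and Cdkn2c. Of the 89 genes 31 had a value at the floor, most of them at 8 hours where they were dim, so many sizes are lower bounds.

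Mki67, the proliferation marker Ki-67, read 167 and 104 at 8 hours, 1544 and 2070 at 3 days and 717 and 1936 at 6 days, and rose by at least 3.39 (SE 0.37, limma adjusted p = 0.0272), at least 10.4-fold. Birc5, or survivin, of the complex that steers chromosome segregation, read 193 and 182 and then 1491 and 1581, a rise of 3.03 (SE 0.44, limma adjusted p = 0.0381). For Mki67 both 8 hour values were at the floor, so its SE and p-value can be too small. Those of Birc5 were close to the floor. Stmn1, which destabilises microtubules, read 819 and 522 at 8 hours, 4219 and 6763 at 3 days and 2528 and 7039 at 6 days, and rose by 3.03 (SE 0.50, limma adjusted p = 0.0464). Plk1, a kinase of mitotic entry, read 303 and 189 and then 1286 and 1463, a rise of 2.52 (SE 0.32, limma adjusted p = 0.0305). For Mki67, Birc5, Stmn1 and Plk1 the knockout array at 3 days lay above the wild type array, and at 6 days the wild type array lay lower still while the knockout array remained high. Nusap1 and Anln, of the mitotic spindle and of cytokinesis, rose by at least 2.74 and at least 2.60. Nusap1 was at the floor on both 8 hour arrays.

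Cdkn2c, an inhibitor of cyclin-dependent kinases and so no gene of division, had another profile: it read 2067 and 1421 at 8 hours, 7193 and 4420 at 3 days and 8455 and 4748 at 6 days, brighter in wild type at each time, and rose by 1.72 (SE 0.18, limma adjusted p = 0.0271). Top2a, the DNA topoisomerase of dividing cells, was not called. It read 66 and 50 at 8 hours, 580 and 1034 at 3 days and 155 and 968 at 6 days, a difference of at least 2.18 (SE 0.59, limma adjusted p = 0.101; 0.00183 in the fit of 4 arrays), and its groups at 8 hours and 3 days did not overlap.

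The promoters of Mki67 and Cdc20 are shown because CHR, the element TTTGAA through which many mitotic genes are repressed outside division, recurred among the cell cycle rises. Capitals mark TTTGAA and CCAAT. Mki67 is at chr7:135716380-135716529 and Cdc20 at chr4:118437344-118437493, both on the minus strand (GRCm38.p6).
Mki67: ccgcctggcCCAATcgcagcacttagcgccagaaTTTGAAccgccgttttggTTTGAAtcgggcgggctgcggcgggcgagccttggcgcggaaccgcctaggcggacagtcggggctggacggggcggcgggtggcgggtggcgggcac
Cdc20: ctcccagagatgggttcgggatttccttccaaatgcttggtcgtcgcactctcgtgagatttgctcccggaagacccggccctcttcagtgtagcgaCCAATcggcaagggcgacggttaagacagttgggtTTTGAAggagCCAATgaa
TTTGAA began at positions -116 and -98 in Mki67 and at -18 in Cdc20. It was in 5 of the 10 called cell cycle genes with a promoter in the table (50%: Mki67, Cdc20, Kif22, Kif2c and Hmgb2), on either strand within 250 bases, against 18.3% of all promoters. CCAAT was also in 5 of the 10 (Mki67, Cdc20, Plk1, Kif22 and Hmgb2), against 37.5%.

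A set of fat cell genes rose between 8 hours and 3 days. Of 30 adipocyte identity genes, 7 rose (23.3%, against 1.69% of all genes), 1 fell, and the median was 0.63 (0.80 in wild type and 0.56 in the knockout), with 12 rises in the fit of 4 arrays. The rises were Slc2a4, Lep, Cebpa, Cidec, Tshr, Apcdd1 and Npr3. Slc2a4, the insulin-responsive glucose transporter GLUT4, read 851 and 277 at 8 hours, 4065 and 1997 at 3 days and 5497 and 1997 at 6 days, and rose by 2.55 (SE 0.22, limma adjusted p = 0.0169), or 5.87-fold. Lep, the hormone leptin, read 1434 and 780 and then 3343 and 3127, a rise of 1.61 (SE 0.25, limma adjusted p = 0.0428). Cebpa, a transcription factor that maintains fat cells, read 16940 and 8294 and then 33281 and 23579, a rise of 1.24 (SE 0.21, limma adjusted p = 0.0460). Each gene was lower on both 8 hour arrays than on either 3 day array. The receptors Tshr (thyrotropin) and Npr3 (natriuretic peptide clearance) rose by at least 2.58 and by 1.42.

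The gene that went the other way was Irs2, an insulin receptor substrate, which read 959 and 1011 at 8 hours and 192 and 312 at 3 days and fell by 2.01 (SE 0.33, limma adjusted p = 0.0458). Other defining fat cell genes had no call. Fabp4, a fatty acid binding protein, read 10169 and 12395 and then 12499 and 10604, a difference of 0.04 (SE 0.21, limma adjusted p = 0.932), with overlapping groups. Adipoq, the hormone adiponectin, read 20668 and 24788 and then 49802 and 36010, a difference of 0.90 (SE 0.24, limma adjusted p = 0.0993; 0.0374 in the fit of 4 arrays). Pparg, the master regulator of fat cell formation, read 2397 and 1908 and then 4307 and 3215, a difference of 0.80 (SE 0.18, limma adjusted p = 0.0777; 0.0317 in the fit of 4 arrays). The Adipoq and Pparg groups did not overlap. Of 25 genes of insulin and growth factor signalling, 1 rose (4%, against 1.69% of all genes), Igfbp4, by 1.30. Another 2 fell (8%, against 2.43%), Irs2 and Trib3, and the list median was -0.09. Of 26 genes of glucose uptake, glycolysis and lactate, Slc2a4 alone rose (3.85%, against 1.69% of all genes). An unadjusted limma p under 0.05 was held by 12, and the median was 0.17.

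**Figure D3:**
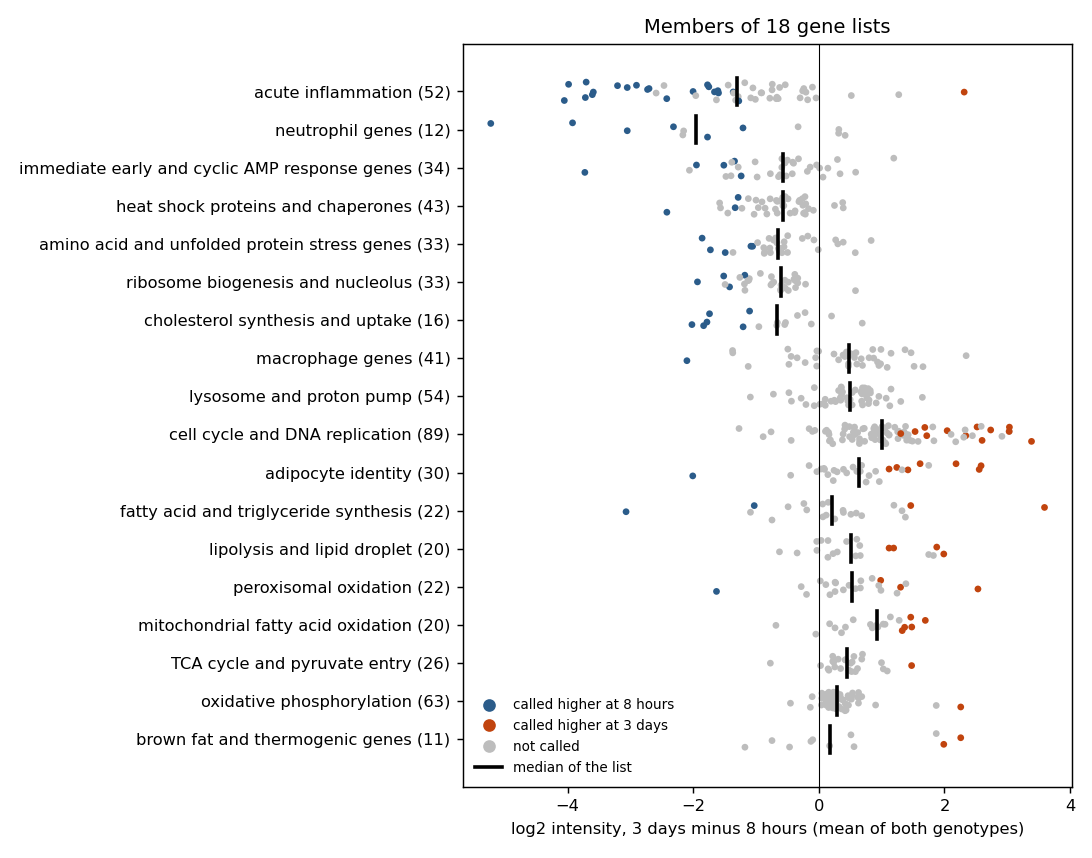
Log2 difference of 3 days minus 8 hours (horizontal axis, mean of both genotypes) for the measured members of 18 lists, 1 point per gene, coloured by call, with a bar at the list median and the number measured in parentheses. Medians run from -1.96 for neutrophil genes to 1.01 for cell cycle genes, and of these lists acute inflammation, adipocyte identity, fatty acid and triglyceride synthesis, and peroxisomal oxidation hold calls both ways.

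Genes of fat storage and breakdown were split. Of 22 genes of fatty acid and triglyceride synthesis, 2 rose and 2 fell (9.09% each way, against 1.69% and 2.43% of all genes). Thrsp, a nuclear protein tied to lipogenesis, held the largest rise among genes above the floor on all 4 arrays: it read 3080 and 1079 at 8 hours, 28722 and 16860 at 3 days and 38139 and 19537 at 6 days, and rose by 3.59 (SE 0.24, limma adjusted p = 0.00983), or 12.1-fold. Fasn, fatty acid synthase, read 8732 and 5967 and then 26446 and 14972, a rise of 1.46 (SE 0.25, limma adjusted p = 0.0478). Both were brighter in wild type at each time. Acsl4, which activates long polyunsaturated fatty acids, read 9472 and 11523 and then 1232 and 1256, a fall of 3.07 (SE 0.25, limma adjusted p = 0.0146). Dgat1, which makes triglyceride from diglyceride, read 28463 and 19732 and then 13877 and 9718, a fall of 1.03 (SE 0.17, limma adjusted p = 0.0458). Scd1, the stearoyl-CoA desaturase, was bright throughout, at 61386 and 55724 and then 69146 and 60844, with a difference of 0.15 (SE 0.17).

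Of 20 genes of lipolysis and the lipid droplet, 4 rose (20%, against 1.69% of all genes) and 0 fell. An unadjusted limma p under 0.05 was held by 10, and the median was 0.51. Ces1d, a lipase of the carboxylesterase family, read 6234 and 3024 at 8 hours and 22414 and 11347 at 3 days and rose by 1.88 (SE 0.17, limma adjusted p = 0.0200). Prkaca, the catalytic subunit of protein kinase A, read 2098 and 1487 and then 4894 and 3325, a rise of 1.19 (SE 0.19, limma adjusted p = 0.0456). Cidea and Cidec, proteins of the droplet surface, rose by 1.99 and 1.12. The hormone-sensitive lipase Lipe read 5960 and 1715 and then 12593 and 9174, a difference of 1.75 (SE 0.34, limma adjusted p = 0.0603; 0.00881 in the fit of 4 arrays). Its lowest value was on the knockout array at 8 hours, and the groups did not overlap. The first triglyceride lipase, Pnpla2, differed by 0.29 (SE 0.18) and the droplet coat protein Plin2 by -0.35 (SE 0.33), and neither was called.

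Some genes of the mitochondrial and peroxisomal oxidation lists rose by 3 days. Of 20 mitochondrial fatty acid oxidation genes, 5 rose (25%, against 1.69% of all genes), 0 fell and 14 had an unadjusted limma p under 0.05. Of the 20, 18 were higher at 3 days in both genotypes, with a median of 0.93 in wild type and 0.96 in the knockout. Acadm, the medium-chain acyl-CoA dehydrogenase, read 9488 and 6512 at 8 hours, 24771 and 15692 at 3 days and 32816 and 20222 at 6 days, and rose by 1.33 (SE 0.17, limma adjusted p = 0.0317). Acads, its short-chain relative, read 1173 and 489 and then 2922 and 2057, a rise of 1.70 (SE 0.27, limma adjusted p = 0.0450). With the mean of its probe sets in place of the brightest, Acads differed by 1.03 and was not called (limma adjusted p = 0.0542). Hadh, Echs1 and Eci1, which carry out later steps of the cycle or isomerise its unsaturated substrates, rose by 1.37, 1.46 and 1.48. The wild type array was brighter than the knockout array at 8 hours and at 3 days for each of these 5 genes, and the rises were 1.11 to 1.56 in wild type against 1.27 to 2.07 in the knockout. The fit of 4 arrays called 13 of the 20.

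Of 22 peroxisomal oxidation genes 3 rose (13.6%, against 1.69% of all genes) and 1 fell (4.55%, against 2.43%), with a median of 0.53. Abcd2, which imports very long-chain fatty acids into peroxisomes, read 651 and 643 at 8 hours, 4289 and 3270 at 3 days and 5466 and 2807 at 6 days, and rose by 2.53 (SE 0.27, limma adjusted p = 0.0271). Cat, catalase, rose by 1.30, and Hsd17b4, the bifunctional enzyme, by 0.98. Pex5, the receptor that brings proteins to peroxisomes, read 3935 and 4317 and then 1476 and 1202 and fell by 1.63 (SE 0.23, limma adjusted p = 0.0367). Of 23 PPARα target genes, 3 rose (13%, against 1.69% of all genes), 0 fell and 11 had an unadjusted limma p under 0.05. The median was 0.26 (0.16 in wild type and 0.37 in the knockout). Pdk4, the pyruvate dehydrogenase kinase and a target of PPARα, was not called: it read 16701 and 5340 and then 5629 and 5431, and the 8 hour value was high in wild type alone.

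Genes of central mitochondrial energy metabolism differed less. Of 26 genes of the TCA cycle and pyruvate entry, 21 were higher at 3 days in both genotypes, with a median of 0.45. The 1 that rose (3.85%, against 1.69% of all genes) was Idh1, the cytosolic isocitrate dehydrogenase. It read 4138 and 3004 and then 11013 and 8745, a rise of 1.48 (SE 0.17, limma adjusted p = 0.0291). Of 63 oxidative phosphorylation genes, 51 were higher in both genotypes, with a median of 0.29, and 1 rose (1.59%, close to the 1.69% of all genes). That gene was Cox8b, a cytochrome oxidase subunit of brown fat and muscle, which read 1691 and 534 at 8 hours, 5767 and 3585 at 3 days and 20683 and 9680 at 6 days, and rose by 2.26 (SE 0.27, limma adjusted p = 0.0293). Cox8b was higher again on both 6 day arrays.

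The brown fat genes differed in direction. Of 11 measured, 2 rose (Cox8b and Cidea, 18.2%, against 1.69% of all genes) and 0 fell. An unadjusted limma p under 0.05 was held by 5, and the median was 0.17. Cidea read 1482 and 565 at 8 hours, 4574 and 2883 at 3 days and 20867 and 8551 at 6 days. Ucp1, the uncoupling protein of thermogenic fat cells, read 23779 and 9616 at 8 hours, 7219 and 6192 at 3 days and 36495 and 16088 at 6 days. Its 3 day values were the lowest in both genotypes, with a difference of -1.18 (SE 0.31, limma adjusted p = 0.0988; 0.0255 in the fit of 4 arrays). Cidea and Cox8b were thus higher at 3 days than at 8 hours while Ucp1 was dimmer, and all 3 were brightest at 6 days.

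Macrophage genes differed between members. Of 41 measured, 0 rose and 1 fell (2.44%, against 2.43% of all genes). At an unadjusted limma p under 0.05 there were 8, against 1528 of all 5842 genes. The median was 0.25 in wild type and 0.67 in the knockout. The fit of 4 arrays called 13 rises and 4 falls of the 41, against 566 rises and 532 falls among all genes. Adgre1, the macrophage surface protein F4/80, read 851 and 1261 at 8 hours, 4336 and 6392 at 3 days and 1019 and 10264 at 6 days, a difference of 2.35 (SE 0.73, limma adjusted p = 0.128; 0.000616 in the fit of 4 arrays). Both 3 day arrays lay above both 8 hour arrays by a like amount, 2.35 in wild type and 2.34 in the knockout, and the 6 day arrays lay far apart. Cd68, a lysosomal glycoprotein of macrophages, read 5593 and 5387 and then 9676 and 15308, a difference of 1.15 (SE 0.70, limma adjusted p = 0.355; 0.0159 in the fit of 4 arrays). The gene that fell was Chil3, a chitinase-like protein of activated macrophages and neutrophils, which read 1988 and 9632 and then 405 and 2570 and fell by 2.10 (SE 0.19, limma adjusted p = 0.0200). Arg1, arginase of alternatively activated macrophages, read 8874 and 8675 and then 1783 and 6453, a difference of -2.31 in wild type and -0.43 in the knockout with no call (limma adjusted p = 0.476; 0.0472 in the fit of 4 arrays). Summed over 43 macrophage genes, intensity was 257157 and 252576 at 8 hours and 285646 and 363742 at 3 days.

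Lysosomal genes lay mostly higher at 3 days. Of 54 measured, 43 were higher at 3 days in both genotypes, with a median of 0.49, and 0 were called in limma. At an unadjusted limma p under 0.05 there were 13, against 1528 of all 5842 genes. The fit of 4 arrays called 14 rises and 1 fall, against 566 and 532 among all genes. Hexa, a subunit of β-hexosaminidase, read 1988 and 1714 at 8 hours, 5680 and 5896 at 3 days and 2759 and 8394 at 6 days, a difference of 1.65 (SE 0.47, limma adjusted p = 0.109). Its 3 day arrays lay above its 8 hour arrays. Ctsa, cathepsin A, differed by 1.30 (SE 0.49, limma adjusted p = 0.179). The macrophage sum moved alongside, and its part in the lysosomal values was not tested.

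Other immune lists held few calls. Of 12 dendritic cell and MHC class II genes 0 were called in limma (0 at an unadjusted p under 0.05), and H2-Aa, an MHC class II chain, read 7777 and 4265 and then 7269 and 8150. Cd83, of mature dendritic cells, differed by at least 0.59 (SE 0.51). Of 6 lymphocyte genes 0 were called in limma (1 at an unadjusted p under 0.05), with differences of 1.51 for the interleukin 7 receptor Il7r and 1.11 for the immunoglobulin chain Ighm. Of 4 mast cell and eosinophil genes 1 fell (25%, against 2.43% of all genes). Hdc, the histamine-forming enzyme, read 1206 and 1396 and then 146 and 382 and fell by at least 2.34 (SE 0.31, limma adjusted p = 0.0331). Of 34 interferon response genes 0 were called in limma (3 at an unadjusted p under 0.05), with a median of -0.16 in wild type and 0.42 in the knockout, and the largest differences were -1.18 for Isg20 and 1.01 for Irf8. Of 14 complement genes 1 fell (7.14%, against 2.43% of all genes). Cd55, which protects cells from complement, read 5185 and 5428 and then 731 and 1374, a fall of 2.40 (SE 0.26, limma adjusted p = 0.0272).

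Among remaining programmes, 2 of 17 circadian clock genes fell (11.8%, against 2.43% of all genes). Nr1d1, the repressor REV-ERBα, read 4252 and 2605 and then 1509 and 770 and fell by 1.63 (SE 0.18, limma adjusted p = 0.0278), and Bhlhe40 fell by 2.39. The labels give no hour of day, so the hour of collection and the treatment cannot be told apart. Of 18 hypoxia and angiogenesis genes 1 fell (5.56%, against 2.43% of all genes), with a list median of -0.27. That gene, Hif1a, the oxygen-regulated transcription factor, read 21658 and 27668 and then 9809 and 10076, a fall of 1.30 (SE 0.20, limma adjusted p = 0.0410). Of 32 oxidative stress and metal genes 1 rose (Cat, 3.12%, against 1.69% of all genes) and 2 fell (6.25%, against 2.43%). The list median was -0.07, and Cat was not called with the mean of its probe sets. The falls were Srxn1, which repairs oxidised peroxiredoxins, by 2.10, and Sod2, the mitochondrial superoxide dismutase, by 1.47.

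Extracellular matrix genes were near level as a list. Of 57 measured, 0 rose, 3 fell (5.26%, against 2.43% of all genes), 24 had an unadjusted limma p under 0.05, and the median was 0.14. Vcan, the proteoglycan versican, read 2645 and 4467 at 8 hours and 122 and 1225 at 3 days and fell by at least 2.91 (SE 0.49, limma adjusted p = 0.0478). Ccn2, a matrix-associated growth factor, and Mmp3, a matrix protease, fell by 1.95 and by at least 1.66. Mmp3 was at the floor on both 3 day arrays. The fibrillar collagens were not called: Col1a1 read 9756 and 10165 and then 11377 and 22785, and Col3a1 17283 and 17869 and then 21958 and 25487. The knockout 3 day array was the highest of the 4 for both collagens.

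The lists of other cell types served as a check on the makeup of the tissue. Of 21 endothelial genes 2 fell (9.52%, against 2.43% of all genes), with a median of -0.40. Selp, the adhesion protein P-selectin, fell by at least 2.70, and Flt4, a receptor of lymphatic endothelium, by at least 1.16. Of 16 smooth muscle and pericyte genes 0 were called in limma (7 at an unadjusted p under 0.05), with a median of -0.34, and their sum went from 36826 and 33026 to 21988 and 23658. Acta2, smooth muscle actin, read 4715 and 4016 and then 1173 and 2514, a difference of -1.34 (SE 0.34, limma adjusted p = 0.0909), and Cnn1 differed by -1.17 (SE 0.36). Of 19 fibroblast and preadipocyte genes 0 were called in limma (2 at an unadjusted p under 0.05), with a median of -0.03. Lum, a matrix proteoglycan, read 3014 and 2304 and then 7255 and 8556, a difference of 1.58 (SE 0.29, limma adjusted p = 0.0568), and Sfrp2 differed by 0.13 in wild type and 1.88 in the knockout. Of 9 mesothelial genes, from the lining of the fat pad, 2 fell (22.2%, against 2.43% of all genes). They were Krt18, by at least 1.80, and Ezr, by 1.21. The mesothelial sum went from 6303 and 7647 to 3694 and 4538.

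Genes of the epididymis, testis and pancreas differed through the 8 hour arrays. Of 6 epididymis and testis genes 1 fell (16.7%, against 2.43% of all genes). Lcn5, an epididymal lipocalin, read 1048 and 1663 at 8 hours and 50 and 18 at 3 days. It fell by at least 2.95 (SE 0.29, limma adjusted p = 0.0235). Both its 3 day values were at the floor, so this SE and p-value can be too small. Gpx5, a secreted peroxidase of the epididymis, read 90 and 9017 and then 177 and 119, bright on the knockout 8 hour array alone among the 4, and it read 4949 and 125 at 6 days. Of 9 pancreas genes 0 were called in limma (0 at an unadjusted p under 0.05), with a median of 0.02 in wild type and -2.29 in the knockout. The digestive proenzymes Ctrb1 and Prss2 read 558 and 8261 and 182 and 4597 at 8 hours and 572 and 327 and 5 and 69 at 3 days. How far RNA of these organs entered other values of the knockout 8 hour array was not tested. Of 12 skeletal muscle genes 0 were called in limma (2 at an unadjusted p under 0.05), with differences of at least -1.14 for Acta1 and 0.87 for Myl1. Of 4 erythroid genes 0 were called in limma (0 at an unadjusted p under 0.05), with -0.19 for the globin Hba-a1 and -0.02 for Alas2. Of 3 liver genes 0 were called in limma (2 at an unadjusted p under 0.05), with 1.36 for Serpina1b and 1.14 for Cyp2e1, a gene that fat also expresses.

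**Figure D4:**
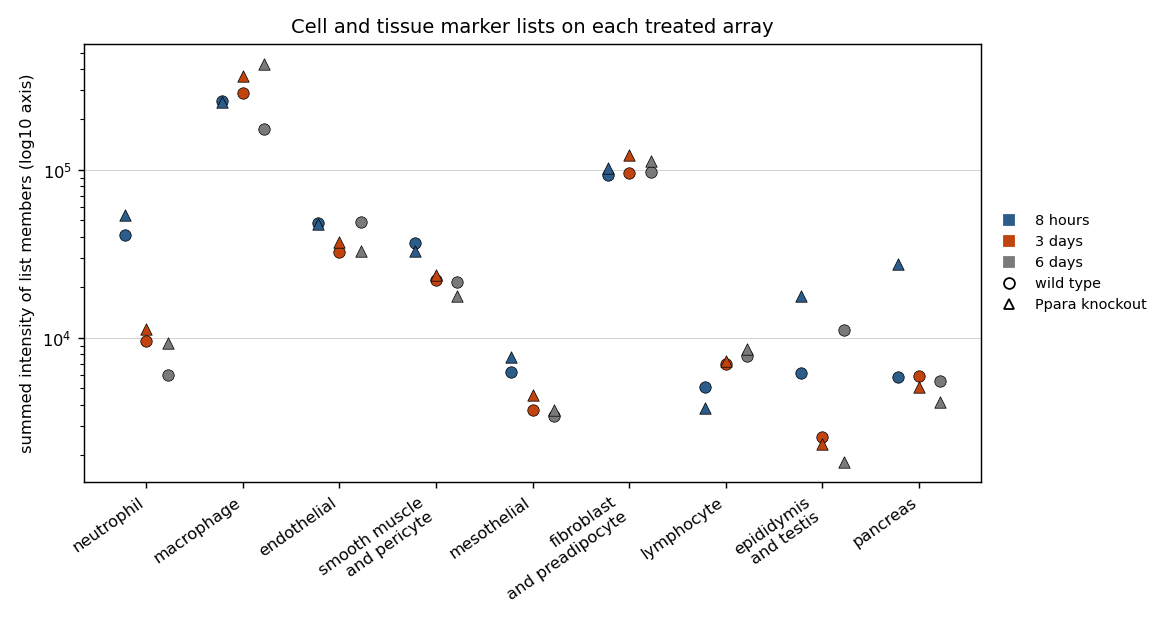
Summed intensity (log10 axis) of the members of 9 cell and tissue marker lists on each of the 6 treated arrays, 1 symbol per array, with no error bars. Neutrophil sums lie highest on both 8 hour arrays, and the knockout 8 hour array stands apart for pancreas (27700). For epididymis and testis genes it is highest (17859), followed by the wild type 6 day array (11063).

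Some large rises lay outside the lists. Reep6, a membrane-shaping protein, read 657 and 408 at 8 hours, 7056 and 2358 at 3 days and 13039 and 3672 at 6 days, and rose by 2.98 (SE 0.31, limma adjusted p = 0.0271). Aldh1a7, an aldehyde dehydrogenase, read 1151 and 603 and then 6851 and 4218, a rise of 2.69 (SE 0.18, limma adjusted p = 0.00983). Heph, a ferroxidase of iron export, read 296 and 174 and then 1586 and 1013, a rise of 2.48 (SE 0.17, limma adjusted p = 0.0113). The 8 hour and 3 day arrays did not overlap for these genes. Ptger3, a prostaglandin E2 receptor that lowers cyclic AMP, read 170 and 90 and then 1393 and 731. It rose by at least 2.56 (SE 0.30, limma adjusted p = 0.0291). Both its 8 hour values were at the floor, so this SE and p-value can be too small. B3galt2, a galactosyltransferase, read 1490 and 544 and then 5771 and 5035, a rise of 2.58 (SE 0.33, limma adjusted p = 0.0312).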

How the data were processed

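RNA of mouse epididymal white adipose tissue had been measured on 8 arrays, 1 for each genotype and treatment, and groups came from the sample titles. As deposited, each value was a linear intensity rounded to a whole number, and 11.9% were negative (below 0). The authors had brought the arrays to a common distribution, as the deposited values show: every array had a median of 320, and the quantiles between the 1st and the 90th percentile differed by at most 1.8 between arrays. How this was done, how background was corrected and how probes were summarised was not given in the sources used here. After such a step a change in total RNA would not be seen.

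Of 12488 probe sets, 66 array controls, 396 with several symbols and 1237 not listed in the platform annotation were left out. Symbols of 10839 were updated through gene numbers in the RefSeq table of GRCm38.p6. Intensities under 171, the 40th percentile, were raised to it and log2 was taken. Probe sets above this floor on at least 2 of the 4 arrays compared (6969) were kept, and the brightest stood for each of 5842 genes. Of 959 genes with several such probe sets, 0 had some that moved 2-fold in opposite directions. No columns of values were left unused (0).

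Genotype plus time was fitted over the 6 treated arrays with limma 3.58.1 in R 4.3.3, leaving 2 residual degrees of freedom. The residual holds any difference between genotypes in the change, which therefore cannot be tested. The steps were tested on simulated data. With 1 array per group, the number of arrays limits the precision.

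Members, the 41 gene lists, the motifs and the named genes were chosen with earlier results of these data known. The rule for naming took the 15 largest called changes each way, up to 5 called members of each list each way (or the 2 largest where none was called), the genotypes' opposite genes and 29 set genes. Other genes (such as Socs3, Cebpb, Cebpa, Csf3r, Cdkn2c, Hsd17b7, Gpx5 and those of the closing section) were named after their values were seen. Alternatives were other array sets, floors, filters, normalization and variance settings, and leaving out each array. Promoters came from the RefSeq table (GRCm38.p6).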

Additional observations from a re-analysis of the deposited data

Results flagged for a closer look

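Lyve1, Adm and 2610524H06Rik are set apart because they moved at least 2-fold in opposite directions in the genotypes, lower at 3 days in wild type and higher in the knockout. With 1 array per genotype and time, the difference between the genotypes was not tested. Lyve1, a hyaluronan receptor of lymphatic endothelium and some macrophages, read 739 and 507 at 8 hours and 262 and 1339 at 3 days (wild type, then knockout), a change of -1.50 in wild type and 1.40 in the knockout, 2.90 apart on the log2 scale. Adm, the vasodilator peptide adrenomedullin, read 390 and 203 and then 162 and 512, with changes of -1.19 and 1.33, at least 2.52 apart because the wild type 3 day array was at the floor. The uncharacterised 2610524H06Rik read 755 and 542 and then 374 and 1090, with changes of -1.01 and 1.01, 2.02 apart. No gene (0) moved 2-fold the other way in both.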

How the results depend on the processing

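No paired analysis by replicate number was possible because each group holds 1 array; genotype was the pair. Sizes and directions in the text are means over the genotypes, and 0 of the 92 named called genes reversed in any setting. The counts of calls moved with the estimate of spread. The fit of the 4 arrays compared, with 1 residual degree of freedom, called 566 rises and 532 falls (51.6% rises, against 41.1%), with 35 inflammation falls and 56 cell cycle, 12 adipocyte and 13 mitochondrial oxidation rises. Without genotype in the fit there were 0 rises and 17 falls (8 inflammation, and 0 cholesterol, cell cycle, adipocyte or mitochondrial oxidation; 1064 at an unadjusted p under 0.05). A floor at the 25th percentile gave 15 rises and 29 falls, with 9 inflammation, 0 cholesterol, 0 cell cycle, 1 adipocyte and 0 mitochondrial oxidation calls. With no filter on dim probe sets there were 0 rises and 2 falls (1 inflammation; 0 in the other lists; 1398 at an unadjusted p under 0.05). A filter over all 8 arrays, which admits more dim genes (6129), gave 7 rises and 22 falls (24.1% rises), with 9 inflammation, 0 cholesterol, 0 cell cycle, 1 adipocyte and 0 mitochondrial oxidation calls. Adding the control arrays gave 144 rises and 162 falls and 21 cell cycle rises. A pseudocount in place of the floor gave 21 cell cycle and 10 mitochondrial oxidation rises, and an intensity trend with a robust prior 162 rises and 10 mitochondrial oxidation rises. Quantile normalization kept all 92 named calls and a mean over probe sets 85. Left out in turn, the arrays gave 0 to 566 rises and 0 to 532 falls, 0 to 35 inflammation, 0 to 7 cholesterol, 0 to 56 cell cycle, 0 to 12 adipocyte and 0 to 13 mitochondrial oxidation calls. The 0 came from each of the wild type and knockout arrays at 8 hours and 3 days, which leave 1 array at that time, assumed to vary like the others, and the upper values from either 6 day array. The cause of the other shifts was not tested. Without genotype in the fit, with the lower floor and with either changed filter, further lists also lost their calls. Under each, 0 falls of the heat shock, unfolded protein and ribosome biogenesis lists and 0 peroxisomal rises passed in limma. Genes near the floor have bounds only.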

Other observations

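Several called genes outside the lists, named after their values were seen and not tested as groups, are enzymes of sugar nucleotide synthesis. Gfpt2, which commits glucose to the hexosamine pathway, read 2573 and 5314 at 8 hours and 552 and 678 at 3 days (wild type, then knockout) and fell by 2.60 on the log2 scale (SE 0.29, limma adjusted p = 0.0278). Uap1, which completes UDP-N-acetylglucosamine, read 1249 and 2207 and then 110 and 203 and fell by at least 3.16 (SE 0.38, limma adjusted p = 0.0293). Ugdh, which makes UDP-glucuronate, read 22224 and 34026 and then 6266 and 7812 and fell by 1.98 (SE 0.23, limma adjusted p = 0.0291). For each of the 3 the knockout array was the brighter at 8 hours and the groups did not overlap. Acod1, the itaconate-forming enzyme of activated macrophages, read 1236 and 567 and then 68 and 29 and fell by at least 2.29 (SE 0.33, limma adjusted p = 0.0381).

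Among rises outside the lists, Oxct1, which lets tissues burn ketone bodies, read 1553 and 1339 at 8 hours and 5221 and 3329 at 3 days and rose by 1.53 (SE 0.20, limma adjusted p = 0.0331). Mccc1 and Auh, successive enzymes of leucine breakdown, rose by 1.98 (SE 0.32) and 1.69 (SE 0.25). Slc25a10, the mitochondrial dicarboxylate carrier, read 2844 and 1076 and then 11734 and 7427 and rose by 2.42 (SE 0.24, limma adjusted p = 0.0235). Mc2r, the receptor for the pituitary hormone ACTH, read 150 and 170 and then 518 and 492, a rise of at least 1.56 (SE 0.26, limma adjusted p = 0.0478). Both 8 hour arrays were at the floor for Mc2r, so its SE and p-value can be too small.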
